A study of Mus musculus with 9 samples.

Results

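The bone morphogenetic protein (BMP) pathway genes described here are 10 genes chosen by name: the ligands *Bmp2*, *Bmp4*, *Bmp5* and *Bmp7*, the secreted antagonists *Nog* and *Chrd*, the inhibitory SMAD gene *Smad6* and the target genes *Id1*, *Id2* and *Id3*. They are 10 of the 55450 genes counted, and all 10 were among the 19371 genes that passed the filter on low counts and were tested. RNA was sequenced from Rathke's pouch, the embryonic primordium of the anterior pituitary, in 7 embryos at e13.5, and from the pituitary of 2 adult mice at postnatal week 8 after removal of the posterior lobe. The embryos carried a *Sox2Egfp/+* allele, in which a fluorescent reporter sits at the locus of the progenitor gene *Sox2*. The strain label of all 9 libraries is 129Sv/c57BL6J, a mixed background, no genotype is given for the adults, and each group held both sexes, with sex not given per library. Stage, the reporter allele and dissection cannot be told apart in this design.

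Read pairs counted on genes numbered 16738863 to 28537311 in the embryos (median 24687556) and 36421545 and 31191117 in the adults. Embryos 1 and 4 stood apart from the other embryos. The share of read pairs assigned to genes was 59.7% and 62.8% in this pair, 73.9% to 80.0% in the remaining embryos, and 84.02% and 83.7% for the adult libraries. In the same pair, 6 globin genes took 14.4% and 16.7% of the counts, against 0.765% to 2.04% in embryos 2, 3, 5, 6 and 7. Several results are therefore also given without these libraries. The labelled tissues showed their defining genes: the homeobox gene *Hesx1* of the early pouch was at 24.8 ± 9.36 CPM (SD, n = 7) in the embryos and 0.451 ± 0.158 (n = 2) in the adults, and the growth hormone gene *Gh* was at 0.465 ± 0.647 and 58659 ± 7338 CPM. CPM are counts put on the same library size, here with the trimmed mean of M-values (TMM) method.

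BMPs are secreted dimers that bind type I and type II serine/threonine kinase receptors, which phosphorylate SMAD1, SMAD5 and SMAD9. These enter the nucleus with SMAD4 and activate target genes, among them the *Id* genes, whose products block basic helix-loop-helix transcription factors, and the inhibitory *Smad6* and *Smad7*. Noggin and chordin hold BMPs away from their receptors, and in the early embryo BMP4 from the ventral diencephalon and BMP2 from tissue around the pouch are known to act in the formation and patterning of the pituitary.

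In these data the 4 ligands of the list and the 3 *Id* genes had higher mean levels in Rathke's pouch than in the adult gland, and both antagonists had lower ones. *Id3* was 10.2-fold and *Bmp4* 6.61-fold higher in the embryos, and *Nog* was 12.6-fold and *Chrd* 5.85-fold higher in the adults. A gene was called when the adjusted p of edgeR's quasi-likelihood test was below 0.05 and the fold change above 4. By this rule 6 of the 10 genes were called, where 25.8% of all tested genes were. Of these, 4 were higher in the embryo (*Bmp4*, *Id1*, *Id2* and *Id3*; 11.3% of all tested genes were called in this direction) and 2 in the adult (*Nog* and *Chrd*; 14.6%). By the adjusted p alone, 9 of the 10 passed (51.4% of all tested genes), and 9 had groups that did not overlap (59.1%), 7 with the embryos above (26.2%) and 2 with the adults above (32.9%). The median log2 fold change of the 10 genes, embryo over adult, was 1.30, and that of all tested genes was -0.04.

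**Figure D1:**
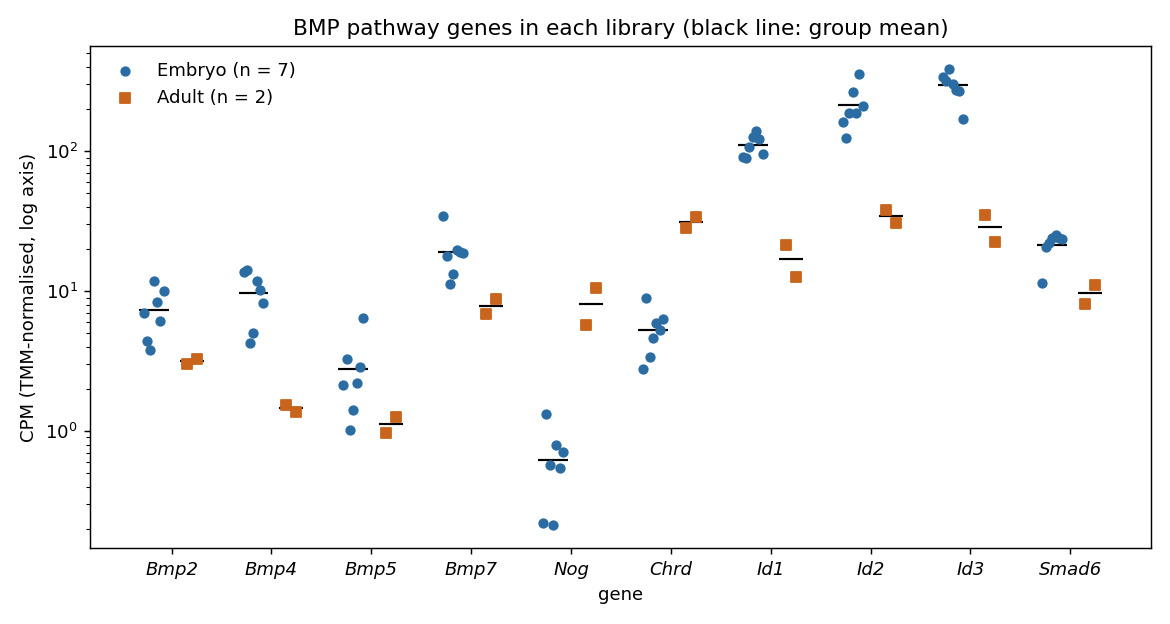
Levels of the 10 BMP pathway genes in each library, in TMM-normalised CPM on a log axis. Blue circles are the 7 embryos, orange squares the 2 adults and black lines the group means; the adults lie above all embryos for *Nog* and *Chrd*, below them for 7 genes, and for *Bmp5* adult 1 lies just below all embryos and adult 2 within their range.

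Among the ligands, *Bmp4*, which is needed for the pouch to form, was the only member of the list called. Its level ran from 4.22 CPM in embryo 3 through a median of 10.3 to 14.2 CPM in embryo 2, and was 1.53 and 1.38 CPM in the adults. Every embryo was above both adults, although embryos 3 and 4, at 4.22 and 5.01 CPM, were well below the other 5. Its log2 fold change was 2.73 ± 0.56 (SE; edgeR adjusted p = 0.0011), and 2.75 without embryos 1 and 4 and 2.14 after correction for transcript length and GC content. The adult values rest on 63 and 49 counts. Against a null of a 4-fold change, *Bmp4* did not pass (edgeR adjusted p = 0.17).

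*Bmp7*, a ligand that often acts together with BMP2 or BMP4, lay between 11.3 and 34.1 CPM in the embryos (median 18.6) and at 6.91 and 8.80 CPM in the adults. The groups did not overlap, and embryo 1 alone held the high end, with the next embryo at 19.6 CPM. The difference was 2.43-fold (log2 1.28 ± 0.40, edgeR adjusted p = 0.016), below the fold threshold, and 1.15 on the log2 scale without embryos 1 and 4. The edgeR adjusted p was 0.14 without adult 1, 0.070 without adult 2 and 0.062 when libraries were scaled by size alone. In each fit with 1 adult left, here and below, the embryos alone give the spread. *Bmp2* lay between 3.78 and 11.9 CPM in the embryos (median 6.96) and at 3.01 and 3.29 CPM in the adults. Its groups did not overlap either, but the lowest embryo was close to the adults. The log2 fold change was 1.22 ± 0.48 with an edgeR adjusted p of 0.046, which became 0.060 without embryos 1 and 4, 0.064 with the length and GC correction, 0.21 and 0.17 without adult 1 or adult 2, and 0.12 when libraries were scaled by size alone. In a fit of embryos and adults 1 and 2 alone, with a replicate block, it was 0.40 (log2 0.84).

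*Bmp5*, a ligand known from skeletal and mesenchymal tissue, had the lowest mean RPKM, a level per length, of the 4 at both stages and was the only member whose groups overlapped. It ran from 1.02 CPM in embryo 3 through a median of 2.21 to 6.45 CPM in embryo 7, and the adults were at 0.970 and 1.27 CPM. The log2 fold change of 1.31 ± 0.69 did not pass the test (edgeR adjusted p = 0.12). After correction for transcript length and GC content it was 2.13 and passed (adjusted p = 0.012), so its call turned on that correction.

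Counting by strand mattered for *Bmp5* and *Bmp2*. On its own strand *Bmp5* had 20 to 201 counts in the embryos, with 40 and 45 for the adults, and when strand was ignored it kept 2 to 107 and 18 and 21, since pairs lying on genes of both strands are then left out of the count. On the opposite strand of *Bmp2* there were 20 to 91 counts in the embryos, with 8 and 10 for the adults. With unstranded counts the log2 fold change of *Bmp2* was 1.62 in place of 1.22.

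Of the 9 other ligands of the family that were listed, 4 passed the filter and 2 were called (25.8% of all tested genes), in opposite directions. *Bmp6* was called higher in the adult, with 50.4 and 41.4 CPM in the adults against 1.99 to 5.65 CPM in the embryos (median 3.14). The difference was 13.2-fold (log2 fold change -3.72 ± 0.35, edgeR adjusted p = 2.38e-06). No embryo came near either adult. *Gdf5*, a growth factor of forming joints, went the other way, with 1.83 to 7.43 CPM in the embryos (median 5.58) and 0.121 and 0.365 CPM in the adults (log2 4.48 ± 0.71, edgeR adjusted p = 1.8e-04). Its lowest embryo was embryo 1. The adults held 5 and 13 counts, and the log2 fold change was 3.89 without adult 1 and 5.44 without adult 2. *Bmp3* did not pass (8.88 ± 2.53 and 7.07 ± 0.85 CPM; log2 0.33), but corrected for length and GC content it was at 1.78 with an adjusted p of 0.0016, so its result turned on the correction. *Bmp8b* did not pass, and *Bmp8a* and *Gdf2* had 0 counts in every library. *Bmp10*, *Gdf6* and *Gdf7* were below the filter.

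The make-up of the ligand pool was compared per length, as RPKM, the CPM of a gene divided by its exon length in kilobases, within each library. Of the summed RPKM of the 13 ligands, *Bmp7* made up 28.5% ± 6.45, *Bmp4* 25.2% ± 7.18, *Gdf5* 15.2% ± 6.29 and *Bmp2* 12.8% ± 5.32 in the embryos (SD, n = 7). In the adults *Bmp6* alone made up 73.8% and 66.4%, and *Bmp7* followed with 9.82% and 13.7%. In the embryos the share of *Bmp6* was between 3.19% and 7.95%, so the groups were far apart. The order within the embryos was less firm: *Bmp4* had a larger share than *Bmp7* in embryos 2 and 5, and *Bmp2* a larger share than *Bmp4* in embryo 4, where it reached 23.3%. The sum itself did not separate the groups, at 16.5 ± 3.37 RPKM in the embryos and 16.8 ± 1.07 in the adults, or 35.6 ± 15.3 and 47.4 ± 3.35 when scaled to a constant total of length-corrected counts per library (TPM).

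**Figure D2:**
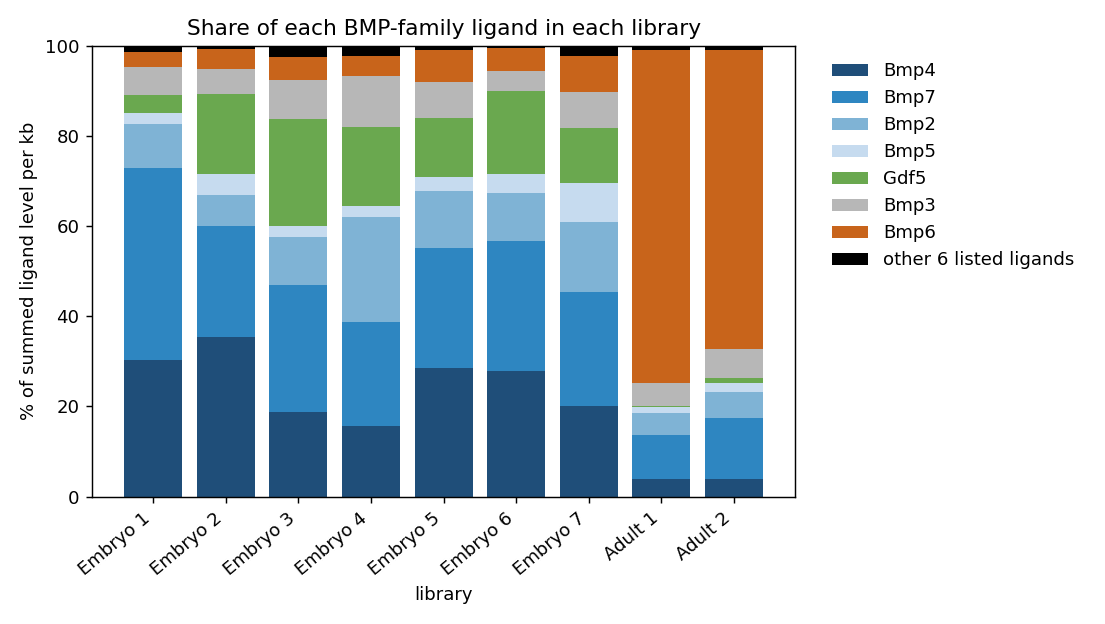
Share of each ligand gene in the summed RPKM of 13 BMP-family ligands, in percent, for each of the 9 libraries. In the adults *Bmp6* takes 73.8% and 66.4% of the sum; in the embryos it takes at most 7.95%, and *Bmp4*, *Bmp7*, *Bmp2* and *Gdf5* together take most of it.

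The antagonists had the opposite pattern to the ligands of the list. *Nog* encodes noggin, which binds BMP2, BMP4 and BMP7. It was at 0.212 to 1.32 CPM in the embryos (median 0.569) and at 5.70 and 10.6 CPM in the adults. All embryos were below both adults, and embryos 1 and 4 had just 3 counts each. The difference on the log2 scale was -3.66 ± 0.55 (edgeR adjusted p = 1.2e-04), and -3.34 without those embryos. *Nog* stayed called in each alternative tried, at -4.48 with the length and GC correction.

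*Chrd* encodes chordin, a large secreted protein that captures BMPs and releases them when it is cleaved. Its level ran from 2.78 CPM in embryo 1 through a median of 5.30 to 8.89 CPM in embryo 2, and was 28.4 and 34.0 CPM in the adults. The groups were well apart, with the highest embryo far below the lower adult. The log2 fold change was -2.55 ± 0.36 (edgeR adjusted p = 6.6e-05). *Chrd* did not pass the test against a 4-fold change (edgeR adjusted p = 0.19). Summed per length, *Nog* and *Chrd* came to 1.22 ± 0.53 RPKM in the embryos and 7.90 and 11.7 RPKM in the adults, and the 4 ligands of the list to 11.8 ± 3.45 RPKM and 3.49 and 4.04 RPKM. The ratio of these ligand and antagonist sums was 5.83 to 29.7 in the embryos (median 9.19, highest in embryo 1, next at 10.8) and 0.441 and 0.346 in the adults. Without *Bmp6* in the ligand sum this ratio describes the listed genes and not the whole pool.

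The wider list held 16 genes of extracellular antagonists, modulators and proteases, of which 14 were tested. Of these, 8 were called, where 25.8% of all tested genes were. Among the called genes, 6 were higher in the embryo (11.3%) and 2 in the adult (14.6%). *Sostdc1*, an antagonist of BMP and Wnt signalling, changed most: 21.6 to 37.7 CPM in the embryos (median 27.2) and 0.970 and 0.787 CPM in the adults, a 32.1-fold difference (log2 5.01 ± 0.40, edgeR adjusted p = 7.4e-07). The embryos stayed within 1.75-fold of each other. *Nbl1*, which encodes the antagonist DAN, was at 102 ± 50.6 CPM in the embryos and 10.3 ± 1.41 in the adults (log2 3.31 ± 0.51, corrected 2.65). *Fst* (log2 2.80), which encodes follistatin, and the protease genes *Bmp1* (2.08) and *Tll2* (2.55) were also called higher in the embryo by edgeR. Without adult 1 or adult 2, *Fst* was at 2.27 and 3.61 with adjusted p-values of 0.16 and 0.054, and *Tll2* at 2.99 and 2.21 with 0.073 and 0.15. These fits have 1 adult, so the embryos alone give their spread, and the folds stayed above 4 while the calls were lost. In the replicate block fit *Tll2* was at 1.02 (adjusted p = 0.65) and *Fst* at 3.57 (0.085). The groups of *Tll2* overlapped, with embryo 1 at 0.440 CPM and the adults at 0.727 and 0.422 CPM. *Bmp1* was just past the fold threshold, and at 1.89 on the log2 scale when libraries were scaled by size alone and at 2.69 with the length and GC correction.

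*Grem1* and the chordin-like *Chrdl1* were called higher in the adult, as *Nog* and *Chrd* were. *Chrdl1* was at 0.690 to 3.18 CPM in the embryos (median 1.62) and 7.61 and 18.4 CPM in the adults (log2 -2.90 ± 0.49, edgeR adjusted p = 2.9e-04), and at -1.998, not called, after correction for length and GC content. Without adult 2 it was at -2.13. For *Grem1* the adults were at 1.07 and 4.47 CPM and the embryos at 0 to 0.513 CPM. The adults differed from each other, and without adult 2 the log2 fold change went from -3.44 to -2.09 and the call was lost (edgeR adjusted p = 0.26). Corrected, *Grem1* was at -2.73. *Twsg1* and *Crim1* were also higher in the adult by the adjusted p but below the fold threshold, and *Bmper* higher in the embryo. Corrected, *Twsg1* was at -0.79 and still passed, and *Crim1* at -0.32 and did not (adjusted p = 0.52). The list thus split, with 4 antagonists and 2 proteases called higher in the embryo and 2 antagonists in the adult.

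Of 7 receptor genes 5 passed the adjusted p, where 51.4% of all tested genes did, and 1 was called (25.8%). This was *Acvrl1*, a type I receptor known from endothelium: 18.4 to 45.2 CPM in the embryos (median 24.0) and 4.68 and 4.25 CPM in the adults (log2 2.54 ± 0.40, edgeR adjusted p = 1.8e-04). The highest value was in embryo 2. The type I receptor *Bmpr1a* was at 67.5 ± 27.9 CPM in the embryos and 135 ± 2.58 in the adults (log2 -1.004 ± 0.35, edgeR adjusted p = 0.028). The type II receptor *Bmpr2* was at 24.5 ± 9.91 and 53.5 ± 4.07 CPM (log2 -1.13 ± 0.36, edgeR adjusted p = 0.018). The direction of both turned with the length and GC correction, to 0.44 for *Bmpr1a* and to 1.22 (adjusted p = 0.0016) for *Bmpr2*. These data therefore give no settled direction for either. *Acvr2a* had a log2 fold change of -1.82 ± 0.39 and *Acvr2b* of 1.66 ± 0.58, and both passed the adjusted p but not the fold threshold. *Acvr2a* was called without embryo 7 (-2.09, adjusted p = 1.4e-04) and in the replicate block fit (-2.13, adjusted p = 0.0014). Corrected, *Acvr2a* was at -0.38 and did not pass (adjusted p = 0.25), nor did *Acvr2b* (1.58, adjusted p = 0.075). *Acvr2b* was at 35.4 and 43.2 CPM in embryos 1 and 4 and at 10.2 to 14.5 CPM in the other embryos, and its log2 fold change was 0.999 without embryos 1 and 4 (adjusted p = 0.018).

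Of 5 co-receptors and membrane modulators, *Bambi*, a decoy receptor that is itself a BMP target, was at 31.4 to 64.7 CPM in the embryos (median 50.3) and 12.1 and 15.1 CPM in the adults. The groups did not overlap, and its log2 fold change of 1.88 ± 0.33 (edgeR adjusted p = 3.5e-04) was just short of the threshold; it was called at 2.004 without embryo 1, at 2.05 without adult 2 and at 3.04 with the length and GC correction (adjusted p = 6.5e-05). *Hfe2*, which encodes hemojuvelin, had 0 counts in both adults and 0.325 ± 0.166 CPM in the embryos. Against a floor of 3 counts in an adult library, it was at least 3.86-fold higher in the embryos. It was called on a fitted log2 fold change of 6.14, which exceeds what this bound supports, and embryo 1 was also at 0 CPM. The counts therefore do not show a difference above 4-fold. With 1 adult left and the spread from the embryos alone, it was at 6.03 without adult 1 and 6.07 without adult 2 and was not called (edgeR adjusted p = 0.081 and 0.077).

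The SMAD genes that carry the signal were expressed at both stages. *Smad1* was at 23.2 ± 5.68 CPM in the embryos and 27.4 ± 1.63 in the adults, *Smad5* at 63.2 ± 20.7 and 99.4 ± 3.69, and *Smad4* at 58.9 ± 9.54 and 89.0 ± 5.01. *Smad5* turned from -0.65 to 0.77 on the log2 scale with the correction for length and GC content (adjusted p = 0.014), so its direction is not settled. *Smad9* was called higher in the adult, with 0.910 ± 0.434 CPM in the embryos and 4.19 ± 0.310 in the adults (log2 -2.19 ± 0.59, edgeR adjusted p = 0.0066). Its call was lost without embryo 1 (-1.97), without adult 2 (adjusted p = 0.068) and with the correction for length and GC content (-1.36, adjusted p = 0.054).

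*Smad6*, whose product stops receptor-activated SMADs and which BMP signalling itself induces, was the inhibitory SMAD of the list. It lay between 11.4 and 25.0 CPM in the embryos (median 23.4) and at 8.12 and 11.1 CPM in the adults. Of the embryos, 6 lay between 20.5 and 25.0 CPM, and embryo 1 was just above the adults. The log2 fold change was 1.16 ± 0.34 (edgeR adjusted p = 0.012), a 2.23-fold difference below the threshold, and 1.28 without embryos 1 and 4. The edgeR adjusted p was 0.15 without adult 1, 0.077 when libraries were scaled by size alone and 0.28 in the replicate block fit (log2 0.71). The other inhibitory SMAD gene, *Smad7*, was at 7.99 ± 3.20 CPM in the embryos and 9.08 ± 2.35 in the adults, did not pass the test (edgeR adjusted p = 0.75), and had no settled direction. The ubiquitin ligase genes *Smurf1* and *Smurf2* did not pass either.

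The 3 *Id* genes had the highest levels per length (RPKM) of the 10 genes at both stages, and all were called higher in the embryo. *Id3* was at 171 CPM in embryo 7, the lowest, and at up to 388 CPM in embryo 3 (median 303), against 35.3 and 22.5 CPM in the adults. Even the lowest embryo was far above both adults. This was a log2 fold change of 3.35 ± 0.38 (edgeR adjusted p = 1.3e-05). *Id3* was called in every alternative tried, with values from 2.22 to 3.72. *Id1* was the steadiest member among the embryos, at 89.6 to 139 CPM (median 108), with the highest embryo 1.55-fold above the lowest, and was at 21.4 and 12.5 CPM in the adults. Its log2 fold change was 2.6997 ± 0.33 (edgeR adjusted p = 2.2e-05). *Id1* has the shortest exon length of the 10, at 1160 bases, and after correction for transcript length and GC content it was at 1.51, below the fold threshold (adjusted p = 0.0011). *Id2* lay between 124 and 355 CPM in the embryos (median 189) and at 37.7 and 30.8 CPM in the adults, with embryo 6 highest. Its log2 fold change was 2.64 ± 0.41 (edgeR adjusted p = 1.4e-04), and 2.42 after correction for transcript length and GC content. *Id2* did not pass the test against a 4-fold change (edgeR adjusted p = 0.11).

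The other targets were mixed. *Id4*, the remaining gene of the *Id* family, overlapped between the groups, with 61.7 ± 14.5 CPM in the embryos and 52.2 ± 13.9 in the adults (log2 0.24 ± 0.29, edgeR adjusted p = 0.51), but was at 1.04 and passed with the length and GC correction (adjusted p = 0.0092). *Atoh8*, a basic helix-loop-helix gene induced by BMP signalling in several cell types, was at 5.78 to 11.9 CPM in the embryos (median 7.58) and 0.339 and 0.647 CPM in the adults, 16.0-fold higher in the embryo (edgeR adjusted p = 3.3e-05). *Msx1* passed the adjusted p with a log2 fold change of 1.007 ± 0.34 but its groups overlapped, because embryo 2 was at 77.4 CPM, and corrected it was at 0.38 and did not pass (adjusted p = 0.38). *Msx2* was below the filter.

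Promoter windows, from 250 bases before to 50 after a RefSeq start (GRCm38.p6), matched 6 of the 10 genes: *Bmp4*, *Bmp5*, *Chrd*, *Id2*, *Id3* and *Smad6*. They were searched for GGCGCC, a GC-rich SMAD1/5 element, for GTCTG or its reverse complement CAGAC, the SMAD-binding element, and for the E-box CACGTG, on both strands. No printed match overlaps another. The windows of *Id3* (chr4:136143572-136143871, plus strand), *Id2* (chr12:25096043-25096342, minus strand) and *Chrd* (chr16:20732877-20733176, plus strand) are shown because these genes were called in opposite directions; capitals mark the matches.
Id3: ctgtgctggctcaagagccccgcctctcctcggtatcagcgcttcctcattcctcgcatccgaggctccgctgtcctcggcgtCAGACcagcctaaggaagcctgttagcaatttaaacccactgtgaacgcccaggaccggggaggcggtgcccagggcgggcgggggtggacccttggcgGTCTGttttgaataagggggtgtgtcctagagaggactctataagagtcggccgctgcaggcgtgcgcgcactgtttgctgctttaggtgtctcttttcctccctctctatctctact
Id2: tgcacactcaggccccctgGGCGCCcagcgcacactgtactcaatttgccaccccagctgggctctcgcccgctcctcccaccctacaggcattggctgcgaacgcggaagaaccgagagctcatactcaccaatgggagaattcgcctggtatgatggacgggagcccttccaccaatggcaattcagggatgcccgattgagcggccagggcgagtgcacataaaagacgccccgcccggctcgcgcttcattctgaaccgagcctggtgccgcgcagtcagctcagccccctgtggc
Chrd: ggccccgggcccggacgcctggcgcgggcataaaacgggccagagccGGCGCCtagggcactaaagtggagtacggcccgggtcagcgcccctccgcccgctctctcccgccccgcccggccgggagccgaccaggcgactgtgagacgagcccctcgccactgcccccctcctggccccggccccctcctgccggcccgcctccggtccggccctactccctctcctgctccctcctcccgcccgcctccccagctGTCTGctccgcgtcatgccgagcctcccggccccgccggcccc
*Id3* holds CAGAC starting 167 bases before the start and GTCTG 68 bases before it, *Id2* holds GGCGCC 231 bases before it, and *Chrd* holds GGCGCC 203 bases before it and GTCTG from base 8 after it. Among all 32851 windows of 300 bases, 11.9% hold GGCGCC, 49.6% hold GTCTG or CAGAC and 7.15% hold CACGTG. Of the 6 windows of the listed genes, 2 hold the GC-rich element, 3 the SMAD-binding element (*Bmp5* with *Id3* and *Chrd*) and 1 the E-box (*Bmp4*, starting 188 bases before the start). The window of *Smad6* holds no match. Such matches describe the letters only, and matches to short motifs are common.

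**Figure D3:**
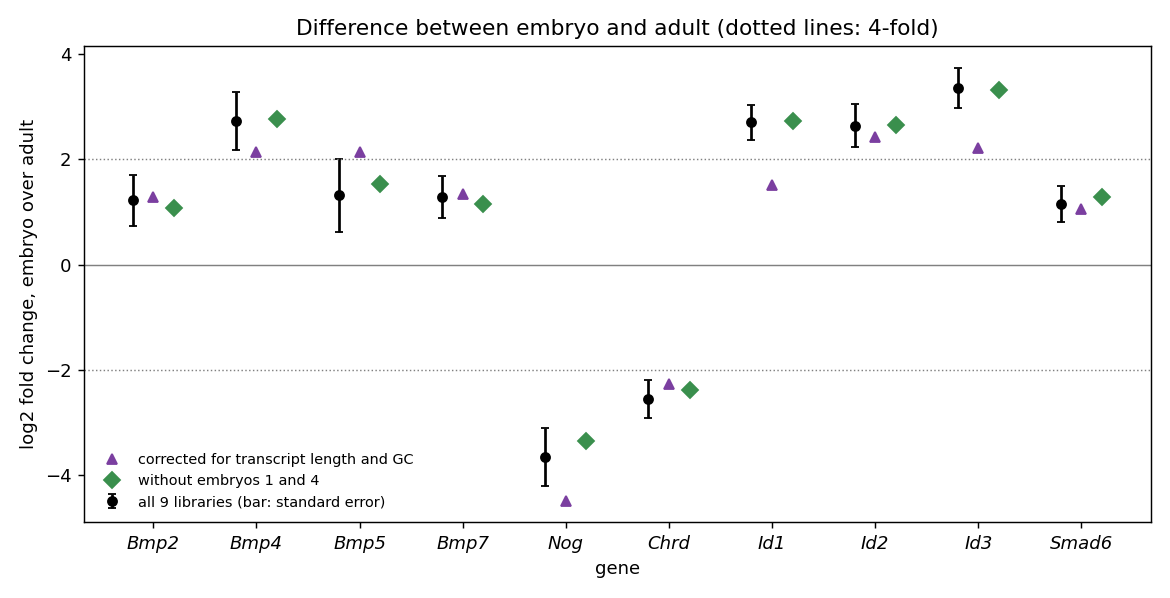
Log2 fold change, embryo over adult, of the 10 genes under 3 fits, with 4-fold changes dotted. Black circles with standard errors are the fit to all 9 libraries, purple triangles the fit corrected for transcript length and GC content, and green diamonds the fit without embryos 1 and 4; each gene stays on its side of 0, and *Id1* drops below and *Bmp5* rises above 4-fold when corrected.

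The correction for transcript length matters because fold changes ran with length over the whole data set. Over the 19371 tested genes, which are not independent of each other, Spearman's rho between log2 fold change and transcript length was -0.39, and after correction it was 0.063. Short transcripts thus had higher embryo values than long ones on average. What produced this was not tested. All 10 genes kept their direction under the correction.

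In the other genes of the pathway, 50 were listed and 42 tested, and 14 were called (25.8% of all tested genes), 10 higher in the embryo (11.3%) and 4 in the adult (14.6%). By the adjusted p alone 27 passed (51.4% of all tested genes), 15 higher in the embryo (24.0%) and 12 in the adult (27.4%). These shares were not tested against each other, and the median log2 fold change was 0.22. The genes called higher in the embryo were 7 ligands, antagonists and proteases, *Acvrl1*, *Hfe2* and *Atoh8*.

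**Figure D4:**
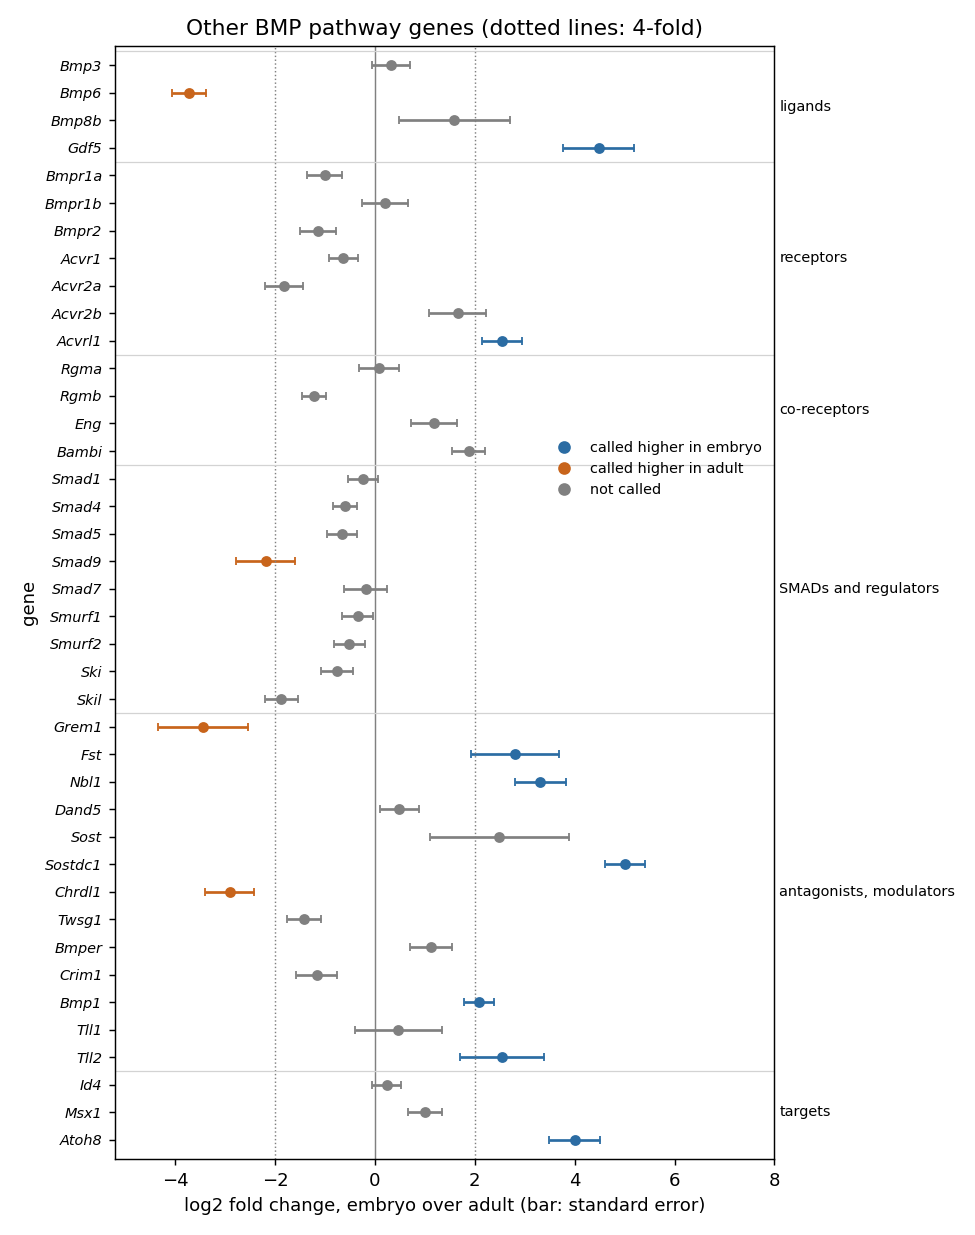
Log2 fold change, embryo over adult, with its standard error, of 40 of the 42 other BMP pathway genes tested, grouped by role; of the 2 left out, *Hfe2* had 0 counts in both adults. Blue genes were called higher in the embryo, orange ones higher in the adult and grey ones were not called; *Sostdc1* lies farthest to the embryo side and *Bmp6* farthest to the adult side.

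Compared per length, the order of the 10 genes changed between stages mainly through the antagonists. In the embryos mean levels were 165 RPKM for *Id3*, 94.98 for *Id1*, 87.6 for *Id2*, 6.70 for *Smad6*, 4.75 for *Bmp7*, 4.29 for *Bmp4*, 2.07 for *Bmp2*, 0.849 for *Chrd*, 0.687 for *Bmp5* and 0.368 for *Nog*. *Id2* was above *Smad6* in all 7 embryos with ranges that did not overlap, while every other pair of neighbours in that order had overlapping ranges. *Id1* was above *Id2* in 4 of 7 embryos, and with the length of the longest transcript in place of all exons *Id2* came before *Id1*. *Id3* was above *Id1* in 7 of 7. In the adults *Id3*, *Id1* and *Id2* were at 16.1, 14.6 and 14.1 RPKM, followed by *Chrd* at 4.99 and *Nog* at 4.81 RPKM. Then came *Smad6* at 3.004, *Bmp7* at 1.95, *Bmp2* at 0.885, *Bmp4* at 0.646 and *Bmp5* at 0.278 RPKM. *Nog* thus went from the last place of the 10 to the fifth, and *Chrd* from the eighth to the fourth, with *Nog* and *Chrd* in either order in the 2 adults. Among all 19371 tested genes ranked by mean RPKM, *Id3* was at place 361 in the embryos and 2397 in the adults, and *Nog* at 15258 and 7392.

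The 7 embryos differed among themselves most for *Bmp5* and *Nog*, whose highest embryo was 6.35-fold and 6.23-fold above the lowest, and least for *Id1*. The place of *Bmp5* rests on a single library, at 6.45 CPM in embryo 7 and next at 3.28. For *Nog* the size of the ratio rests on embryo 2, at 1.32 CPM and next at 0.797, and its lowest embryos held 3 counts each. Marker genes of tissue around the pouch were set beside this spread. Summed mesenchyme markers (6 genes, all with counts in every library) were at 581 to 2147 CPM in the embryos, with 582 and 381 for the adults, led by *Col3a1* in the embryos and *Col1a2* in the adults. Summed markers of the ventral diencephalon, which gives rise to the posterior lobe, were at 58.6 to 181 CPM (5 genes, led by *Rax*; *Vax1* was at 0 in some embryos) and at 18.3 and 21.2 CPM in the adults, led by *Vax1*. In bulk samples, fewer cells of a type and less RNA per cell cannot be told apart.

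*Bmp5* and *Bmp4* ran with the mesenchyme sum and with the endothelium sum over the 7 embryos, as far as 7 points show. For *Bmp5* and mesenchyme, Pearson's r of log2 levels was 0.90 and Spearman's rho 0.86, with r = 0.75 once the 2 embryos farthest from the median sum were left out. With endothelium r was 0.77, rho 0.93 and r without the 2 farthest 0.78. For *Bmp4* and mesenchyme, r was 0.81 and rho 0.64, but r was -0.20 without the 2 farthest, so the relation rests on embryos with extreme sums. With endothelium r was 0.78, rho 0.68 and r without the 2 farthest 0.48. *Bmp5* also ran with the ventral diencephalon sum (r = 0.60, rho 0.82, and 0.60 without the 2 farthest) and against the sum of pouch and pituitary markers (r = -0.71, rho -0.79, and -0.95). These sums cannot be told apart here. *Bmp4* and *Bmp7* ran together with r = 0.81 and rho 0.64, and r = 0.80 without the 2 embryos farthest in *Bmp7*. The part of these tissues in the *Bmp4* and *Bmp5* differences between stages was not tested. Of the 6 mesenchyme markers, 4 were called higher in the embryo (11.3% of all tested genes) and *Prrx1* was called higher in the adult (14.6%).

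*Nog* and *Chrd* ran with the ventral diencephalon sum. For *Nog* r was 0.95 and rho 0.79, and r was 0.86 without the 2 farthest embryos. For *Chrd* r was 0.90, rho 0.93 and r without the 2 farthest embryos 0.96. *Nog* also ran with the percentage of read pairs counted on genes (r = 0.91, rho 0.86, and r = 0.54 without the 2 farthest embryos), which was lowest in embryos 1 and 4, and with the summed cartilage markers (r = 0.95, rho 0.89, and 0.79 without the 2 farthest), which were at 161 to 374 CPM in the embryos, led by *Col2a1*, with *Acan* and *Matn1* at 0 in some. *Chrd* ran with the cartilage sum too (r = 0.80, rho 0.86, and 0.79 without the 2 farthest), and with the percentage counted by rank (rho 0.86, r = 0.66, and 0.37). With the sum of pouch and pituitary markers, r was -0.775 for *Chrd* (rho -0.57, and -0.57 without the 2 farthest). For *Nog* it was -0.58 (rho -0.25, and -0.15). *Nog* ran against the summed globin genes (r = -0.83, rho -0.57), with r = 0.09 without the 2 farthest. With the endothelium sum r was 0.72 for *Nog* (rho 0.75, and 0.94 without the 2 farthest) and 0.84 for *Chrd* (rho 0.89, and 0.64). These measures share libraries and cannot be told apart over 7 embryos. Between stages, the adults had higher *Nog* and *Chrd* with lower ventral diencephalon and cartilage sums (15.0 and 8.83 CPM for cartilage). *Rax* and *Nkx2-1* were at 1.79 ± 0.45 and 1.40 ± 0.44 CPM in the adults. The part of these tissues in the *Nog* and *Chrd* differences between stages was not tested. Of the 5 ventral diencephalon markers, 3 were called higher in the embryo (11.3% of all tested genes), *Fgf10* did not pass (adjusted p = 0.055), and *Vax1* was called higher in the adult (14.6%), as *Nog* and *Chrd* were, with 0.647 CPM in the embryos and 8.75 in the adults on average (log2 -3.73, adjusted p = 2.8e-04).

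Endothelium markers were at 116 to 432 CPM in the embryos, highest in embryo 2, and 117 and 73.5 CPM in the adults, with all 5 genes present in every library and *Emcn* and *Kdr* leading in embryo and adult. The sums overlapped, since embryo 3 was the lowest embryo and adult 1 was above it. Of the 5 markers 3 passed the adjusted p (51.4% of all tested genes), all higher in the embryo, and *Emcn* alone was called. *Tek* did not pass (adjusted p = 0.22), nor did *Kdr*, at -0.65 on the log2 scale. *Acvrl1* and *Eng*, receptor genes known from endothelium, were higher in the embryo by the adjusted p, and *Acvrl1* was highest in embryo 2 as the marker sum was. The part of endothelium in their difference was not tested. For *Id1*, *Id2* and *Id3*, r over the 7 embryos was -0.30, -0.35 and -0.43 with the endothelium sum, and -0.40, -0.29 and -0.64 with the mesenchyme sum. *Id2* ran against the macrophage sum (r = -0.85, rho -0.93, and r = -0.82 without the 2 farthest embryos). With the same sum, r was 0.40 for *Id3* (rho 0.79, and 0.54 without the 2 farthest) and -0.62 for *Id1* (rho -0.57, and 0.22). The macrophage sum was at 93.9 to 244 CPM in the embryos, led by *C1qb*, and at 80.0 and 122 CPM in the adults, led by *Csf1r*.

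By likeness over the 7 embryos (Pearson's r of log2 CPM among 11763 genes), the gene most like *Bmp4* was *Prelp* (r = 0.96), *Bmp5* had *Cdh11* among its closest 3 (0.98), and those most like *Bmp7* were *Slc38a3* (0.97) and *Pomc* (0.95). *Nog* was most like *6430548M08Rik* (0.98), *Chrd* most like *Ldb2* (0.98), *Id2* most like *Tfb1m* (0.995), *Id3* most like *Tmem107* (0.99), *Smad6* most like *Mboat1* (0.99) and *Bmp2* most like *2500004C02Rik* (0.96). *Id1* had its closest gene at 0.92 (*Gm48606*). High values of r are common with 7 libraries and 11763 genes. The number of genes above 0.95 was 1 for *Bmp4* and 109 for *Id3*.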

How the data were processed

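RNA was measured in 7 Rathke's pouch and 2 anterior pituitary libraries. The authors sequenced directional poly(A) libraries as 75 bp pairs, trimmed them with Trimmomatic 0.39, aligned them to mm10 (GRCm38) with STAR 2.7.5b and deposited raw counts of read pairs per gene. All 55450 identifiers were found in the annotation of Ensembl release 96. The count on the gene's own strand was used. Counts were scaled by TMM, and the 19371 genes whose mean count over the libraries reached 5 were fitted with edgeR 4.0.16 (quasi-likelihood F-test, stage as the only term). Adjusted p-values are from this test, by Benjamini-Hochberg over all tested genes, unless another is named. DESeq2 1.42.0 was an alternative. RPKM used the union of a gene's exons and TMM-scaled library sizes. The corrected fit used offsets from splines on transcript length and GC content. A count of 0 was bounded by a floor of 3 counts per library, which covers counting error only. The edgeR fit was tested on simulated counts, which varied less between libraries than the data do (common dispersion 0.19 in the data). Genes named are the 10 genes, 50 other pathway genes, cell type markers and the closest genes by correlation. Some of these, kept in the counts over lists, are not reported here. These genes and lists were chosen with earlier results of these data known.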

Additional observations from a re-analysis of the deposited data

Results flagged for a closer look

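A library was singled out when its gap to the nearest other embryo was over 0.568 of the range of the 7 embryos, Dixon's limit. Of 60 groups of embryo values tested this way, 11 had such a library. For independent, normally distributed values chance gives about 1 in 20. These groups are CPM from the same 7 libraries, some with few counts, so the 11 cannot be measured against that rate. In embryo 1, *Bmp7* was high at 34.1 CPM (next embryo 19.6), *Fst* high at 2.71 CPM (next 1.39), *Smad6* low at 11.4 CPM (next 20.5), *Gdf5* low at 1.83 CPM (next 5.10) and *Hfe2* low at 0 CPM (next 0.289). The *Hfe2* value is a count of 0, and the floor of 3 counts is at 0.220 CPM in embryo 1, so for this gene the library is not firmly apart. Embryo 1 had the smallest share of read pairs counted on genes, 59.7%, and its part in these values was not tested.

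In embryo 2, *Acvrl1* was high at 45.2 CPM (next 28.1), *Atoh8* high at 11.9 CPM (next 7.83), the summed macrophage markers high at 244 CPM (next 158), and *Msx1* low at 77.4 CPM (next 164). In embryo 7, *Bmp5* was high at 6.45 CPM (next 3.28) and *Smurf2* high at 58.1 CPM (next 33.8). Embryo 7 also had the highest mesenchyme sum, 2147 CPM, whose part in the *Bmp5* value was not tested.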

How the results depend on the processing

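Each of the 10 genes kept its direction under the 19 alternative fits tried. Among these, the test against a 4-fold change reuses the fold changes of the main fit, so it could not change a direction. The calls of *Bmp4*, *Chrd* and *Id2* were lost only in the test against a 4-fold change, and that of *Id1* only with the length and GC correction, which added *Bmp5*. The test against a 4-fold change called 1744 genes, 3 of the 10 and 5 other pathway genes, against 5001, 6 and 14. A threshold of 2-fold gave 8960 genes and 26 other pathway genes, and no fold threshold 9948 and 27. Leaving out each library in turn gave 3782 to 5234 genes and 10 to 16 other pathway genes, with 6 of the 10 each time. Leaving out embryos 1 and 4 together gave 5283, 6 and 16. DESeq2's test called 5050 genes, 6 of the 10 and 14 others. The length and GC correction called 4054 genes, 3065 of them shared with the main fit, 6 of the 10 and 13 others. Of those others, 11 were higher in the embryo and 2 in the adult, against 10 and 4 in the main fit. Scaling by library size alone moved the median log2 fold change of all genes from -0.04 to -0.26. With it, 1738 genes were called higher in the embryo and 3250 in the adult, against 2182 and 2819 in the main fit.

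Genes that were not called changed sign as follows, and the cause was not tested. With the length and GC correction, log2 fold changes became 0.44 for *Bmpr1a*, 1.22 for *Bmpr2*, 0.77 for *Smad5*, 0.10 for *Smad7*, 0.24 for *Smurf1*, 0.41 for *Smurf2* and -0.44 for *Dand5*. Scaled by library size alone, *Bmpr1b* was at -0.0197 and *Rgma* at -0.14. With the length and GC correction, *Bmpr1b* was at 1.48 and passed (edgeR adjusted p = 0.0086). With libraries left out in turn, *Bmpr1b* ran from -0.0166 (without adult 2) to 0.462, *Rgma* from -0.14 (without adult 2; -0.08 without embryo 2) to 0.346, *Smad7* from -0.423 to 0.11 (without adult 1; 0.00308 without embryo 1) and *Id4* from -0.00787 (without adult 2) to 0.539. *Smad7* was at 0.0400 without embryos 1 and 4.

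The replicate numbers name different animals, and same-numbered embryos and adults did not deviate together (r = 0.079 and 0.017 over 12744 genes). A replicate block on replicates 1 and 2, with 4 libraries, called 4103 genes, 6 of the 10 and 12 other pathway genes, with a median log2 fold change of all genes of -0.19. In it *Bmp2*, *Smad6*, *Bmpr2*, *Smad4*, *Bmper*, *Crim1*, *Msx1*, *Hfe2*, *Fst* and *Tll2* no longer passed the adjusted p. With 2 adults, the adult spread rests on a single difference, and genes with few counts, such as *Nog* in the embryos and *Grem1*, are the least precise.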

Other observations

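Other marker sums describe the tissue in which the pathway genes were measured. The 6 pouch and pituitary markers summed to 469 to 1174 CPM in the embryos and 405 and 334 CPM in the adults, with *Pitx1* highest on average in the embryos. The 7 hormone genes summed to 870 to 1920 CPM in the embryos, led by *Cga*, with *Lhb* and *Fshb* at 0 in some, and to 152482 and 160059 CPM in the adults, led by *Gh*. The 4 markers of oral and surface epithelium were low in all libraries, with sums of 2.503 to 8.37 CPM in the embryos and 3.10 and 2.76 CPM in the adults.

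*Id1* and *Smad6*, both known as direct BMP targets, ran together by rank over the 7 embryos (rho 0.89, r = 0.60), with embryo 1 low in both. *Id1* and *Id3* did not (rho -0.32, r = 0.03, and r = -0.82 without the 2 embryos farthest in *Id3*), *Id2* and *Id3* had rho -0.54 and r = -0.28 (-0.66 without the same 2), and *Id1* and *Id2* had rho 0.57 and r = 0.60 (0.42 without the 2 embryos farthest in *Id2*). The 3 *Id* genes were each far higher in every embryo than in either adult, but among the embryos *Id3* did not run with the other 2.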
